A study of Mus musculus with 12 samples.

Results

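Potassium channel genes were taken as all genes whose mouse symbol starts with Kcn. The rule found 93 of the 22667 genes in the tables, and GENCODE annotates all 93 as protein-coding. They were measured by mRNA sequencing of E18.5 mouse brain tissue, as 2 libraries in each of 4 groups: cortex control, cortex KO, hippocampus control and hippocampus KO. Controls were wild type. The KO (knockout) embryos lacked Srrm4, also called nSR100, a neuronal splicing regulator. The conditional nSR100lox allele came from EUCOMM stem cells aggregated with ICR morulae, the line was kept on C57Bl/6N, and exons 7 and 8 were removed with the CMV-cre line B6.C-Tg(CMV-cre)1Cgn/J. That Cre acts throughout the body, so the loss was not restricted to neurons. The labels do not state the zygosity of the KO embryos, whether the tissues of a genotype came from the same embryos, or whether tissue was pooled.

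Potassium channels let potassium ions leave the cell along their gradient, which sets the resting potential, ends each action potential and limits repetitive firing. Voltage-gated pore subunits assemble as tetramers with cytoplasmic or membrane-bound accessory subunits, the inward rectifiers (Kcnj) and the tandem-pore leak channels (Kcnk) act near rest, and the calcium- and sodium-activated channels link firing to ion entry. In the forebrain at the end of gestation, neurons are still acquiring these currents, and radial glia and astrocyte precursors carry channels that buffer extracellular potassium.

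Library totals lay between 58210499 and 140052443 counts, of which the 93 genes together took 0.143% to 0.164% of them. Levels are given as RPKM (reads scaled to gene length and library total), the authors' length-scaled unit. Srrm4 itself lay at 24.2 to 27.9 RPKM in the 4 control libraries and at 5.68 to 8.12 RPKM in the 4 KO libraries, so the labels held, although RNA from the gene remained. Tissue carried the first principal component, with 78.0% of the variance. The 6 hippocampus markers summed to 49.3 to 57.1 RPKM in cortex and to 243 to 279 RPKM in hippocampus. Hippocampus KO replicate 1 stood apart in having the cortex marker Mef2c at 24.0 RPKM, against 12.8 to 13.9 RPKM in the other hippocampus libraries, and 4.40% mitochondrial counts, against 3.14% to 3.44% elsewhere. Hippocampus control replicate 2 stood apart in Ttr, the main choroid plexus transcript, at 152 RPKM against 13.4 to 26.8 RPKM in the other hippocampus libraries. Y-linked genes reached 144 and 148 CPM (counts scaled to the library total) in control replicate 2 of cortex and hippocampus, 0.319 and 0.412 CPM in KO replicate 2, and 25.4 to 49.8 CPM in the replicate 1 libraries. The labels give no sex, and its part in any KO value was not tested.

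Most channel genes were expressed. By mean over the 8 libraries, 10 genes reached 10 RPKM, 51 lay from 1 to under 10 RPKM, 18 from 0.1 to under 1 RPKM and 14 below 0.1 RPKM. Among the abundant genes was Kcnmb4, the neuronal accessory subunit of the large-conductance calcium-activated channel, at 29.9, 28.4, 28.3 and 30.1 RPKM in the cortex libraries (control 1 and 2, KO 1 and 2, the order used throughout) and 26.6, 24.9, 22.4 and 24.8 RPKM in hippocampus. Kcnk1 and Kcnk2, tandem-pore channels, had means of 21.8 and 21.1 RPKM, and Kcnip1, a calcium-binding partner of the Kcnd channels, 17.5 RPKM. Kcnq3, a pore subunit of the M-current that restrains repetitive firing, lay at 8.49 to 12.9 RPKM in cortex and 9.39 to 12.8 RPKM in hippocampus, with the tissues overlapping. The means of Kcnk1 and Kcnk2 differed by less than their spread over the libraries, and of these 5 genes Kcnk1 had the largest difference between tissues.

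**Figure D1:**
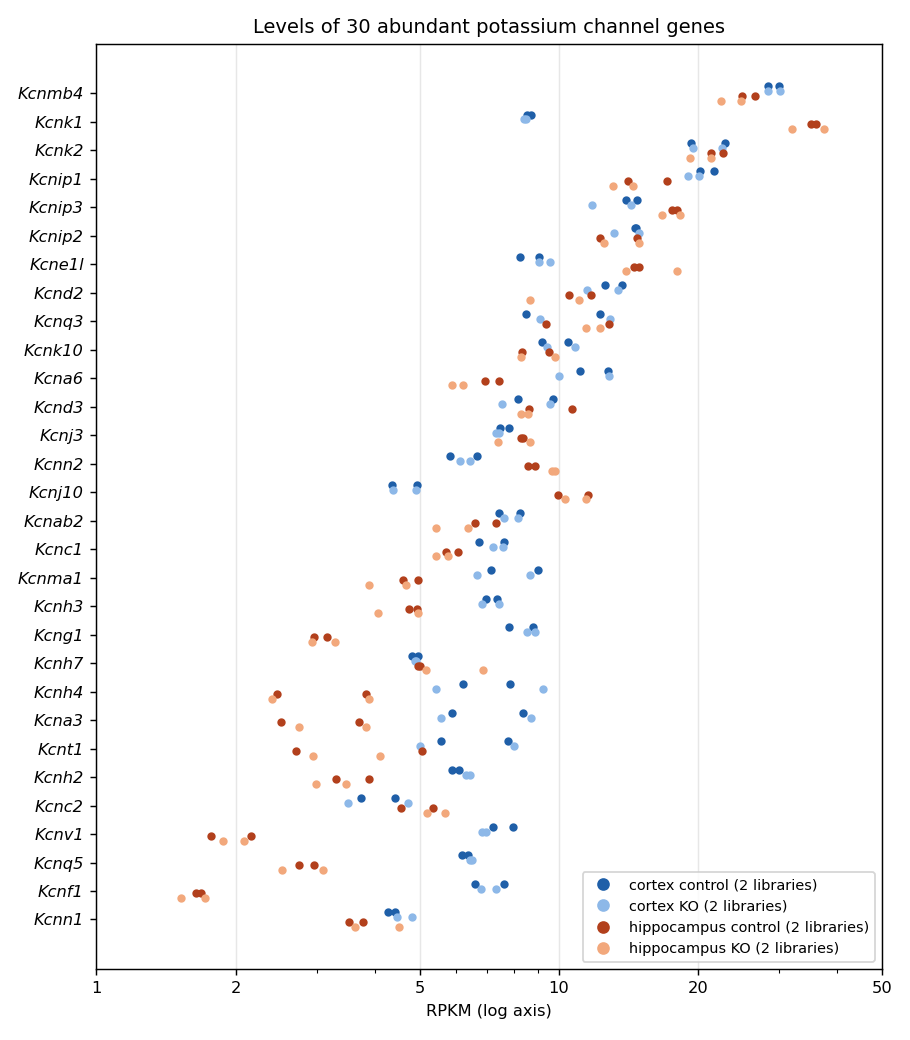
RPKM (log axis) of 30 abundant potassium channel genes in order of their mean, each dot 1 library, coloured by group with 2 libraries each. Kcnk1, Kcnj10 and Kcne1l sit to the right in the hippocampus libraries, Kcng1, Kcna3 and Kcnh2 to the left, and control and KO dots of a tissue lie close together in most rows.

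Of the 93 genes, 85 passed the filter on low counts and were tested. The other 8 (Kcna7, Kcna10, Kcng4, Kcnj1, Kcnk15, Kcnk16, Kcnmb3 and Kcnv2) never exceeded 0.04 RPKM. A gene near that limit passed the filter because of the tissue in which it was higher, which holds for Kcnk18, Kcnk7 and Kcne1 below.

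Hippocampus differed from cortex in many channel genes, mostly by lower levels in hippocampus. In controls, 12 were higher and 28 lower in hippocampus of the 85 tested (edgeR adjusted p under 0.05), where 33.9% of all 16111 genes tested passed, 19% higher and 14.9% lower. In KO, 14 were higher and 35 lower, where 40% of all genes passed, 21.2% higher and 18.8% lower. With both genotypes together, 4 libraries against 4, 17 were higher and 43 lower, where 54.1% of all genes passed, 29% higher and 25% lower. The median log2 fold change of the channel genes was -0.25 in controls, -0.37 in KO and -0.33 over both, and that of all genes tested was 0.01, 0.03 and 0.02. In RPKM, all 4 hippocampus libraries lay above all 4 cortex libraries in 16 channel genes and below them in 33, where 32.6% of all genes lay above and 18% below. RPKM is scaled to library totals alone, unlike the tests. With totals alone, the median log2 fold change of all genes over both genotypes was 0.11, against 0.02 in the tests. Values below are log2 fold changes of hippocampus against cortex over both genotypes with their standard errors (SE), unless stated. Counts of classes and marker lists below come from the same contrast, in which 54.1% of all genes passed, 29% higher and 25% lower.

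Markers of cell types and neighbouring regions also differed between the tissues. All 10 interneuron markers were lower in hippocampus, with summed levels of 149 to 207 RPKM against 521 to 560 RPKM in cortex, and all 7 striatum markers were lower, at 23.5 to 28.5 RPKM against 112 to 124 RPKM. All 6 pan-neuronal markers were lower, at 2116 to 2349 RPKM against 2674 to 2914 RPKM. All 7 microglia markers were higher, at 45.6 to 59.7 RPKM against 25.0 to 30.2 RPKM, and of 8 radial glia and astrocyte markers 5 were higher and 2 lower, at 1059 to 1343 RPKM against 863 to 970 RPKM. Of 7 markers of endothelium and pericytes, 5 were higher, at 98.3 to 107 RPKM against 74.6 to 78.4 RPKM. The part of these differences in the channel results was not tested, and in bulk tissue fewer cells of a type and less RNA per cell cannot be told apart.

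The tissues drew their leak channels from the same family in different proportion. Kcnk1, a tandem-pore channel of neurons and glia, lay at 8.52, 8.72, 8.42 and 8.50 RPKM in cortex and at 36.0, 35.2, 31.9 and 37.4 RPKM in hippocampus. All 4 hippocampus libraries stood far above all 4 cortex libraries, 3.86-fold on average (log2 fold change 1.95 ± 0.06, edgeR adjusted p = 3.7e-08). Kcnk2, a mechanically gated and lipid-sensitive leak channel, lay at 19.3 to 22.9 RPKM in cortex and 19.2 to 22.7 RPKM in hippocampus and did not pass (-0.09 ± 0.09). Kcnk1 therefore lay at 0.372 to 0.452 times Kcnk2 in cortex and 1.50 to 1.95 times in hippocampus, a ratio chosen after the values were seen and given without a test. The summed level of the 14 Kcnk genes averaged 50.1 and 50.2 RPKM in cortex control and KO and 72.8 and 70.4 RPKM in hippocampus.

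Other tandem-pore genes were lower in hippocampus. Kcnk3, an acid-sensitive leak channel, lay at 3.36, 3.08, 3.45 and 2.86 RPKM in cortex and 1.26, 1.21, 1.13 and 1.33 RPKM in hippocampus (-1.46 ± 0.10, edgeR adjusted p = 2.3e-06). The tissues did not overlap, nor did they for the related acid-sensitive channel Kcnk9, at 3.59 to 5.12 RPKM against 1.70 to 3.10 RPKM (-0.95 ± 0.21, edgeR adjusted p = 0.0042). Kcnk12 lay at 1.09 to 1.32 RPKM against 0.48 to 0.52 RPKM (-1.38 ± 0.11, edgeR adjusted p = 7.4e-06). Kcnk13, a channel known from microglia, was lower in hippocampus by a small margin (0.38 to 0.56 RPKM against 0.35 to 0.42 RPKM, -0.41 ± 0.15, edgeR adjusted p = 0.038), while all 7 microglia markers were higher. That call was kept in 6 of the 16 alternative settings that tested it. Over the whole class, 4 of 12 tested Kcnk genes were higher and 5 lower. The 4 include Kcnk18 and Kcnk7, which were tested only because their hippocampus counts passed the filter.

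Kcnk18, a leak channel best known from sensory neurons, was scarce and mostly found in hippocampus libraries. Its raw counts were 4, 4, 2 and 1 in cortex and 94, 32, 58 and 26 in hippocampus. Cortex libraries reached at most 0.02 RPKM and hippocampus libraries lay at 0.15 to 0.26 RPKM, and the size of the fold depends on the few cortex counts. The gene was tested only because its hippocampus counts passed the filter, so its call is no independent support for the difference. The gene was named after its values were seen.

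The electrically silent subunits had the most negative median difference of the classes. These subunits (Kcnf, Kcng, Kcns and Kcnv) form no channel alone and modify the Kcnb channels they join. Of 8 tested, 6 were lower in hippocampus and 1 higher, with a median of -1.30. Their summed level averaged 28.5 and 27.7 RPKM in cortex control and KO and 12.7 and 11.5 RPKM in hippocampus. Kcnf1 lay at 7.62, 6.60, 7.33 and 6.77 RPKM in cortex and 1.68, 1.64, 1.72 and 1.52 RPKM in hippocampus, 4.59-fold lower (-2.20 ± 0.08, edgeR adjusted p = 6.2e-08). Kcnv1 lay at 7.95, 7.20, 6.97 and 6.81 RPKM against 2.16, 1.77, 2.08 and 1.88 RPKM (-1.96 ± 0.09, edgeR adjusted p = 2.1e-07). Both were several times lower in every hippocampus library, and so was Kcng1, at 7.82 to 8.90 RPKM against 2.92 to 3.28 RPKM (-1.56 ± 0.07, edgeR adjusted p = 1.9e-07). Kcns2 and Kcns3 were lower as well (-1.29 ± 0.10 and -1.31 ± 0.15), and Kcns1 by less (-0.47 ± 0.14). Kcng3 did not pass (-0.61 ± 0.32), but did with the replicate block (-0.62 ± 0.18, edgeR adjusted p = 0.015).

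Kcng2 was the exception, at 0.84, 0.93, 0.85 and 0.79 RPKM in cortex and 3.71, 2.68, 1.55 and 3.59 RPKM in hippocampus (1.64 ± 0.27, edgeR adjusted p = 0.00067). The hippocampus value was lowest in KO replicate 1, the library with the raised Mef2c. In KO its call was lost without cortex KO replicate 1, cortex KO replicate 2 or hippocampus KO replicate 2, with log2 fold changes of 1.56, 1.41 and 0.79, and in controls it was lost without cortex control replicate 1, at 1.74. Kcnb2, a delayed rectifier that the silent subunits modify, did not pass (-0.14 ± 0.19).

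**Figure D2:**
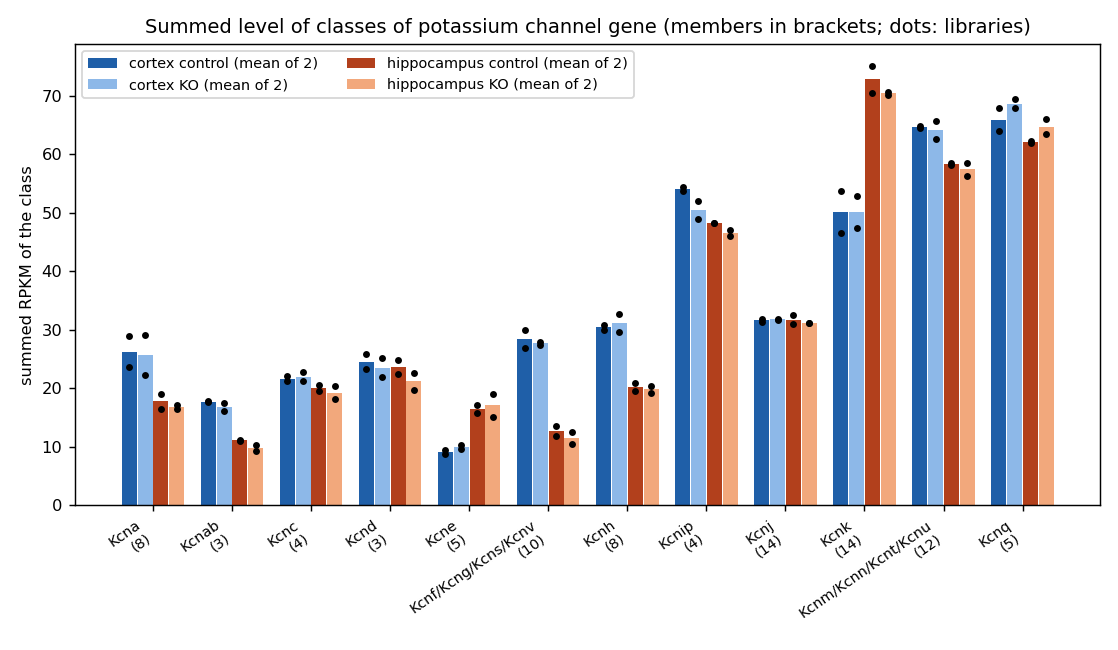
Summed RPKM of 12 classes of potassium channel gene, with the number of members in brackets, bars for the mean of the 2 libraries of a group and dots for the libraries. The Kcnk bars are taller in hippocampus (72.8 and 70.4 RPKM against 50.1 and 50.2 RPKM), the Kcnf/Kcng/Kcns/Kcnv and Kcnh bars shorter, and control and KO bars of a tissue are of like height.

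Among the Shaker-type channels (Kcna), which act at axons and low voltages, 4 of 6 tested were lower in hippocampus and 1 higher. Kcna3 lay at 8.37, 5.87, 8.71 and 5.57 RPKM in cortex and 3.69, 2.51, 3.82 and 2.74 RPKM in hippocampus (-1.25 ± 0.20, edgeR adjusted p = 0.00064). Replicate 1 was above replicate 2 in every group, and the tissues did not overlap. Its call in controls was lost without cortex control replicate 1 or hippocampus control replicate 2, and in KO without cortex KO replicate 1 or hippocampus KO replicate 2. Kcna4, an inactivating member, was lower by a small amount (-0.33 ± 0.06), and Kcna2, a main axonal subunit, did not pass (-0.21 ± 0.19), but did with replicate number as a block (-0.20 ± 0.06, edgeR adjusted p = 0.024). Their cytoplasmic beta subunits (Kcnab) were all lower in hippocampus. Kcnab1, which speeds inactivation of Shaker-type channels, lay at 6.42, 6.58, 5.14 and 5.78 RPKM in cortex and 1.70, 1.87, 1.73 and 1.57 RPKM in hippocampus, 3.69-fold lower (-1.88 ± 0.07, edgeR adjusted p = 6.9e-08). Kcnab2 and Kcnab3 were lower by less (-0.39 ± 0.09 and -0.66 ± 0.13).

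The Shaw-type channels (Kcnc), which repolarize fast-spiking cells, did not move together. Kcnc4 lay at 4.46, 4.04, 4.27 and 4.25 RPKM in cortex and 1.80, 1.73, 1.25 and 1.82 RPKM in hippocampus (-1.47 ± 0.12, edgeR adjusted p = 9.7e-06). Kcnc1 was lower by less (-0.44 ± 0.08), and Kcnc2, at 3.50 to 4.71 RPKM against 4.55 to 5.66 RPKM, was higher by a small margin (0.25 ± 0.09, edgeR adjusted p = 0.047). Kcnc1 and Kcnc2 are known from parvalbumin interneurons. The 10 interneuron markers, which do not include parvalbumin, had a median log2 fold change of -1.38, and their part in the Kcnc values was not tested. The Kcnc2 call was kept in 11 of 17 alternative settings.

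Among the genes of Kcnd-based A-type channels, 1 of 3 tested Kcnd genes was lower in hippocampus. Of 4 tested Kcnip genes, 1 was higher and 2 lower. Of the Shal-type pores (Kcnd), Kcnd2, the main A-type subunit of dendrites, was lower by a small amount in hippocampus (-0.38 ± 0.10, edgeR adjusted p = 0.0091), while Kcnd1 and Kcnd3 did not pass (0.12 ± 0.12 and -0.05 ± 0.11). Of their calcium-binding partners (Kcnip), Kcnip1 was lower (-0.55 ± 0.07), Kcnip3 higher (0.28 ± 0.07) and Kcnip2 did not pass (-0.16 ± 0.08). Kcnip4 was the one that differed most, at 3.99, 4.15, 3.83 and 3.74 RPKM in cortex and 1.37, 1.24, 1.73 and 1.31 RPKM in hippocampus (-1.55 ± 0.12, edgeR adjusted p = 5.7e-06). The summed Kcnip genes lay at 1.95 to 2.37 times the summed Kcnd genes in cortex and 1.95 to 2.38 times in hippocampus.

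The ether-à-go-go channels (Kcnh) were lower in hippocampus in 7 of 8 tested. The largest difference was in Kcnh5, at 1.51, 1.07, 1.67 and 1.08 RPKM in cortex and 0.38, 0.31, 0.49 and 0.24 RPKM in hippocampus (-1.98 ± 0.23, edgeR adjusted p = 8.7e-05). Kcnh2, a slowly deactivating channel that dampens excitability, lay at 5.88 to 6.43 RPKM against 2.99 to 3.88 RPKM (-0.95 ± 0.08, edgeR adjusted p = 1.3e-05), and Kcnh3, a forebrain member, at 6.81 to 7.42 RPKM against 4.06 to 4.96 RPKM (-0.70 ± 0.08, edgeR adjusted p = 6.3e-05). All 3 had no overlap between tissues. Kcnh4 was lower too (-1.29 ± 0.21), and in each group replicate 2 was above replicate 1. Its call in controls was lost without cortex control replicate 2 or hippocampus control replicate 1, and in KO without cortex KO replicate 2 or hippocampus KO replicate 1. Kcnh7 alone did not pass (0.07 ± 0.09). Of the Kcnq genes, Kcnq5, a further M-current subunit, lay at 6.37, 6.16, 6.42 and 6.49 RPKM in cortex and 2.74, 2.96, 3.09 and 2.52 RPKM in hippocampus (-1.26 ± 0.07, edgeR adjusted p = 5.6e-07). Kcnq1 and Kcnq3 did not pass (-0.05 ± 0.15 and 0.01 ± 0.16).

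Of the 5 small membrane-spanning accessory subunits (Kcne), 4 were higher in hippocampus and none lower. Kcne1l, the most abundant, lay at 9.05, 8.25, 9.07 and 9.55 RPKM in cortex and 14.9, 14.6, 18.0 and 13.9 RPKM in hippocampus (0.68 ± 0.08, edgeR adjusted p = 0.00011), and Kcne4 at 0.26 to 0.30 RPKM against 0.62 to 0.68 RPKM (1.11 ± 0.11, edgeR adjusted p = 3.3e-05). Neither overlapped between tissues. Kcne1, 1 of the 4, passed at no more than 0.05 RPKM (1.28 ± 0.43) and kept the call in 9 of the 12 alternative settings that tested it. Its raw counts were 4, 0, 8 and 4 in cortex and 8, 7, 16 and 7 in hippocampus. It was tested only because its hippocampus counts passed the filter, so its call is weak evidence of a difference. Kcne2, an accessory subunit abundant in choroid plexus epithelium, lay at 0.12, 0.15, 0.12 and 0.11 RPKM in cortex and 0.21, 1.66, 0.24 and 0.26 RPKM in hippocampus. The high library was hippocampus control replicate 2, which also had the most Ttr. The same library held the highest value of Kcnj13, an inward rectifier of choroid plexus, at 0.63 RPKM against 0.07 to 0.33 RPKM in the other 7. The 8 choroid plexus markers, of which 4 were higher in hippocampus and 1 lower, summed to 3.01 to 8.87 RPKM in cortex and to 19.4, 164, 33.5 and 34.1 RPKM in hippocampus. Ttr alone made up 13.4, 152, 24.1 and 26.8 RPKM of the hippocampus sums. In controls, Kcne2 had a log2 fold change of 2.62 ± 0.83 (edgeR adjusted p = 0.042), which became 0.59 without that library (edgeR adjusted p = 0.25), and over both genotypes 1.95 ± 0.65 became 0.83 (edgeR adjusted p = 0.0096).

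Of the inward rectifiers (Kcnj), 3 of 13 tested were higher in hippocampus and 4 lower, a share of 53.8% that is close to the 54.1% of all genes. Their summed level averaged 31.6 and 31.8 RPKM in cortex control and KO and 31.8 and 31.2 RPKM in hippocampus. Kcnj2, a strong rectifier that holds the resting potential, lay at 4.35, 4.83, 4.61 and 4.75 RPKM in cortex and 0.89, 0.89, 1.62 and 0.78 RPKM in hippocampus, 4.72-fold lower (-2.24 ± 0.19, edgeR adjusted p = 1.0e-05). The highest hippocampus value was again in KO replicate 1. In KO alone the log2 fold change was -2.05 ± 0.27, and -2.68 without that library. Lower as well were the strong rectifiers Kcnj4 (-1.37 ± 0.18) and Kcnj12 (-1.29 ± 0.10), with no overlap between tissues. Of the G protein-gated channels, which carry inhibitory transmitter responses, Kcnj9 was lower, Kcnj5 higher (0.36 to 0.46 RPKM against 0.95 to 1.25 RPKM, 1.22 ± 0.12, edgeR adjusted p = 3.0e-05), and neither Kcnj3 (0.03 ± 0.06) nor Kcnj6 (-0.48 ± 0.18, edgeR adjusted p = 0.051) passed. With the replicate block Kcnj6 did (-0.48 ± 0.09, edgeR adjusted p = 0.0015). Kcnj8, the pore of the pericyte ATP-sensitive channel, did not pass (-0.13 ± 0.09). Nor did its partner subunit Abcc9, at 3.22 to 3.67 RPKM in cortex and 3.38 to 3.59 RPKM in hippocampus. Abcc9 is itself 1 of the 7 endothelium and pericyte markers, of which 5 were higher.

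Of the calcium- and sodium-activated channels, 2 of 11 tested were higher in hippocampus and 5 lower. Kcnma1, the large-conductance pore, lay at 9.0, 7.13, 8.68 and 6.66 RPKM in cortex and 4.96, 4.61, 4.67 and 3.89 RPKM in hippocampus (-0.89 ± 0.12, edgeR adjusted p = 0.00018). Its accessory subunit Kcnmb4 was lower by less (-0.33 ± 0.06), so that Kcnmb4 lay at 3.27 to 4.52 times Kcnma1 in cortex and 4.79 to 6.38 times in hippocampus. Kcnn2, a small-conductance channel of the afterhyperpolarization, was higher, at 5.82, 6.65, 6.11 and 6.41 RPKM in cortex and 8.86, 8.58, 9.83 and 9.67 RPKM in hippocampus (0.47 ± 0.06, edgeR adjusted p = 0.0001). Kcnn1 was lower (-0.31 ± 0.08) and Kcnn3 did not pass (0.24 ± 0.14), but did with the replicate block (0.25 ± 0.07, edgeR adjusted p = 0.012). The sodium-activated pair differed in sign, with Kcnt1 lower (-0.93 ± 0.21, edgeR adjusted p = 0.0052) and Kcnt2 higher (0.39 ± 0.08, edgeR adjusted p = 0.0025). Kcnrg, a regulator and not a pore subunit, was lower (-0.43 ± 0.11).

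Several channel genes that lie next to each other differed in opposite directions. In GENCODE gene order, 7 adjacent pairs of tested channel genes were found. Both genes passed in 4 of them, and in all 4 the signs were opposite. The pairs Kcna5 with Kcna1 and Kcna1 with Kcna6 share Kcna1, so the 4 are not independent. Over the genome, both genes passed in 4043 of 13157 adjacent protein-coding pairs, and 42.1% of those had opposite signs. Kcnj10 is the main inward rectifier of astrocytes and takes up extracellular potassium, and Kcnj9 beside it is a neuronal G protein-gated subunit. Kcnj10 lay at 4.93, 4.36, 4.91 and 4.38 RPKM in cortex and 11.5, 9.96, 11.4 and 10.3 RPKM in hippocampus (1.13 ± 0.08, edgeR adjusted p = 3.6e-06). Kcnj9 lay at 2.73, 2.84, 2.73 and 2.77 RPKM in cortex and 1.46, 1.57, 1.49 and 1.59 RPKM in hippocampus (-0.95 ± 0.07, edgeR adjusted p = 3.1e-06). The neighbours thus separated the tissues without overlap and in opposite senses, with Kcnj10 at 1.54 to 1.81 times Kcnj9 in cortex and 6.34 to 7.90 times in hippocampus. Of the astrocyte markers, Gja1 lay at 8.79 to 9.81 RPKM in cortex and 33.5 to 43.5 RPKM in hippocampus, while Aqp4 was at 2.65 to 3.56 RPKM and 1.63 to 2.59 RPKM.

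The windows of 250 bases upstream of the starts of these divergent neighbours are shown because the genes share a locus and differ in direction. They are RefSeq sequence of build GRCm38.p6, Kcnj9 from chr1:172329323-172329572 on the minus strand and Kcnj10 from chr1:172340960-172341209 on the plus strand, each written 5′ to 3′ toward the gene, with matches to the searched motifs in capitals.
Kcnj9: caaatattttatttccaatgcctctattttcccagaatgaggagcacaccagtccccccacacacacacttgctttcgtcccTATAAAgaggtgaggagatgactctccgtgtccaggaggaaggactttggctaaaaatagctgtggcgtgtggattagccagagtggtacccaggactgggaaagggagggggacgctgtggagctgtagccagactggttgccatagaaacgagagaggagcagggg
Kcnj10: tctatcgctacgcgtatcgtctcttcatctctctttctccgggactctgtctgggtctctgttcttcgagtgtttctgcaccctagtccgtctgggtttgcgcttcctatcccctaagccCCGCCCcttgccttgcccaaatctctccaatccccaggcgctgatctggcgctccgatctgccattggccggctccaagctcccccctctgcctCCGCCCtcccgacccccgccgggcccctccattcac
The Kcnj9 window held 1 match to TATAAA and 5 CpG dinucleotides, and the Kcnj10 window 2 matches to GGGCGG, read as CCGCCC on this strand, and 17 CpG. The median window of the table held 6 CpG. Both strands of 32851 windows were searched. The motif GGGCGG was found in 32.7% of them, and TATAAA in 12.4%. An E-box, CAGCTG, was found in 13%, and the cyclic AMP response element, TGACGTCA, in 1.55%, and neither was in these windows. The motifs do not overlap each other here. They were chosen with these sequences in view, and a match describes letters only. The windows of Kcnk1 and Kcnf1 were searched in the same way and held no match to any of these motifs, with 0 and 1 CpG. Of the 93 channel genes, 69 had a window in the table, and the first window listed for a gene was used.

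The same opposition held on chromosomes 11 and 6. Kcnj16, which joins Kcnj10 in glial channels, lay at 0.47, 0.35, 0.42 and 0.37 RPKM in cortex and 1.11, 0.82, 0.99 and 0.72 RPKM in hippocampus (1.08 ± 0.16, edgeR adjusted p = 0.00044), next to Kcnj2, which was lower. Kcnj16 lay at 0.0725 to 0.108 times Kcnj2 in cortex and 0.611 to 1.25 times in hippocampus. On chromosome 6, Kcna1, a Shaker-type channel of axons, lay at 1.79, 1.69, 1.71 and 1.80 RPKM in cortex and 3.25, 2.96, 2.91 and 3.41 RPKM in hippocampus (0.75 ± 0.07, edgeR adjusted p = 2.5e-05). It sits between Kcna5, at 0.90 to 1.01 RPKM against 0.38 to 0.50 RPKM (-1.27 ± 0.11, edgeR adjusted p = 1.4e-05), and Kcna6, at 12.8, 11.1, 12.8 and 10.02 RPKM in cortex and 7.44, 6.92, 5.87 and 6.21 RPKM in hippocampus (-0.92 ± 0.10, edgeR adjusted p = 5.2e-05). The middle gene was higher in hippocampus and both outer genes lower, with no overlap between tissues in any of the 3.

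**Figure D3:**
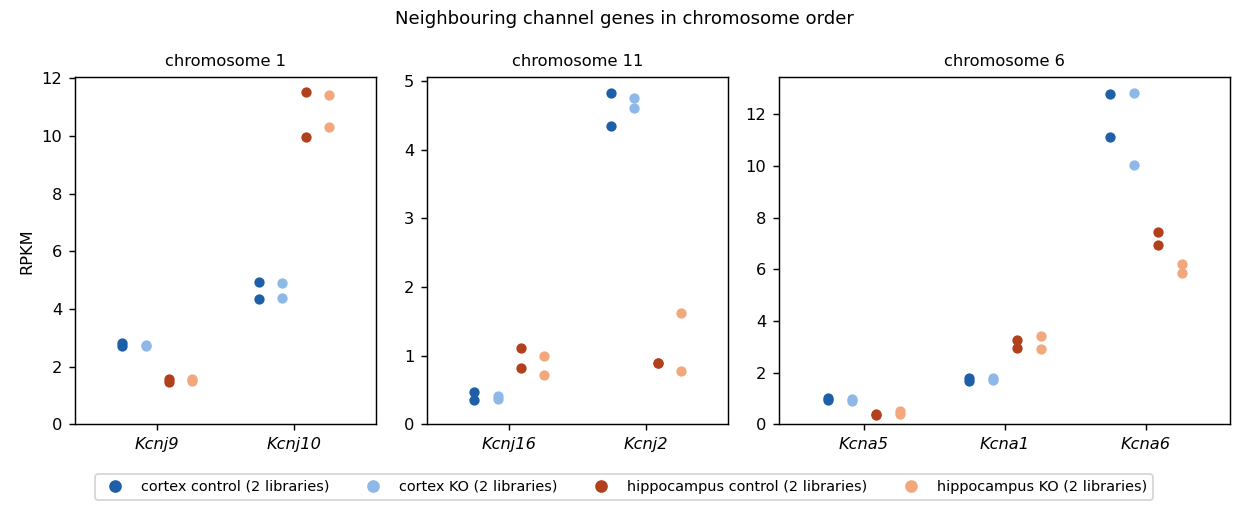
RPKM of neighbouring channel genes in chromosome order on chromosomes 1, 11 and 6, each dot 1 library, with 2 libraries per group. Kcnj10, Kcnj16 and Kcna1 are higher in hippocampus (for Kcna1, 2.91 to 3.41 RPKM against 1.69 to 1.80 RPKM), and Kcnj9, Kcnj2, Kcna5 and Kcna6 lower.

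The tissue difference was measured separately in controls and in KO, which share no library. Of the 40 genes that passed in controls and the 49 in KO, 38 passed in both, all in the same direction, which is 95% of the first and 77.6% of the second. Over all genes the shares were 91.0% and 77.2%. The 85 genes had the same sign in 77 cases. Kcne2 and Kcnk9 passed in controls alone, and Kcna4, Kcnab2, Kcnab3, Kcnd2, Kcnh1, Kcnip3, Kcnk7, Kcnmb4, Kcns1, Kcnt1 and Kcnt2 in KO alone. A pass in 1 genotype is no difference between genotypes, and the test of that difference, the interaction of KO and tissue, passed for none of the 85. With the replicate block Kcnk9 also passed in KO, and Kcna4, Kcnab3, Kcnmb4, Kcnt1 and Kcnt2 also passed in controls. Without hippocampus KO replicate 1 the count in KO was 41, with 11 higher and 30 lower, the count over both genotypes was 56, and without hippocampus control replicate 2 the count in controls was 36, with 10 higher and 26 lower.

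**Figure D4:**
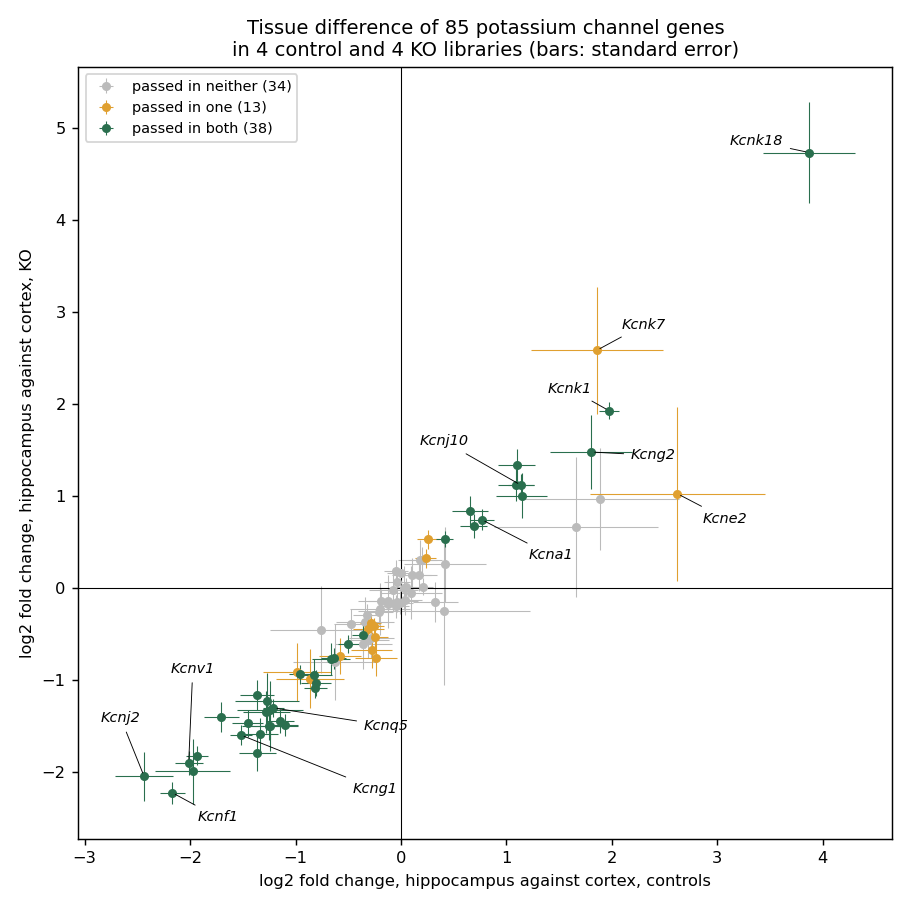
Log2 fold change of hippocampus against cortex for the 85 tested potassium channel genes, in controls on the horizontal axis and in KO on the vertical axis, with bars for the standard error and colours for the genotypes in which a gene passed. The 38 genes that passed in both lie in the upper right or lower left, with Kcnf1 at -2.17 and -2.23 and Kcnk1 at 1.97 and 1.93.

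Loss of Srrm4 changed no potassium channel gene past the threshold. With edgeR, 0 of 85 passed in cortex, where 0.0186% of all genes did (3 of 16111), 0 in hippocampus (0.0248%, 4 genes), 0 over both tissues (0.0621%, 10 genes) and 0 in the interaction of KO and tissue (0%). DESeq2 and limma also called none of them, and edgeR called none without hippocampus KO replicate 1. At an unadjusted p under 0.05 there were 1, 5, 3 and 1 genes. The median log2 fold change of KO against control was -0.005 in cortex, -0.06 in hippocampus and -0.03 over both tissues, and that of all genes tested was -0.001, -0.004 and -0.004. In hippocampus none of the 10 interneuron markers passed. All 10 had negative values, with a median of -0.43, and summed to 185 and 207 RPKM in controls and 149 and 166 RPKM in KO. All 5 erythroid markers had positive values, with a median of 0.71, and summed to 199 and 281 RPKM in controls and 493 and 297 RPKM in KO, and none passed. Their part in the channel values was not tested.

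The genes with the smallest p over both tissues were Kcnab1, Kcnh6 and Kcns2. Kcnab1, the beta subunit above, lay at 6.42 and 6.58 RPKM in cortex control and 5.14 and 5.78 RPKM in cortex KO, and at 1.70 and 1.87 RPKM in hippocampus control and 1.73 and 1.57 RPKM in hippocampus KO. The genotypes were apart in cortex and overlapped in hippocampus (log2 fold change -0.20 ± 0.07 over both, edgeR adjusted p = 1.0). Kcns2, a silent subunit, had -0.28 ± 0.10 and Kcnh6, an ether-à-go-go channel of low level, -0.39 ± 0.14, neither of which passed. In hippocampus alone Kcnj12 had the smallest p, at 1.08 and 1.17 RPKM in controls and 0.86 and 0.84 RPKM in KO (-0.43 ± 0.12, edgeR adjusted p = 0.99), against 2.29, 2.28, 2.24 and 2.22 RPKM in the cortex libraries. In hippocampus, Kcne2 had -1.84 ± 0.78 (edgeR adjusted p = 0.99), which became 0.19 without hippocampus control replicate 2 and -2.73 (edgeR adjusted p = 0.022) without hippocampus control replicate 1, so its value rested on the library rich in Ttr.

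The intervals show what size of change the 8 libraries leave room for, if the libraries are independent. Those over both tissues could be too narrow if the tissues of a genotype came from the same embryos, which the labels do not state. Over both tissues the 95% interval of the log2 fold change lay within ±1 for 79 of the 85 genes and within ±0.5 for 65. Of the 61 genes with a mean of at least 1 RPKM, it lay within ±1 for all 61 and within ±0.5 for 55. For Kcnmb4 the interval ran from -0.22 to 0.07, and for Kcnk1 from -0.18 to 0.09. For the difference between tissues in the KO effect, the interval lay within ±0.5 for only 22 of the 85. These values are totals per gene, and exon use within a gene, which a splicing regulator would act on, is not resolved in them.

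**Figure D5:**
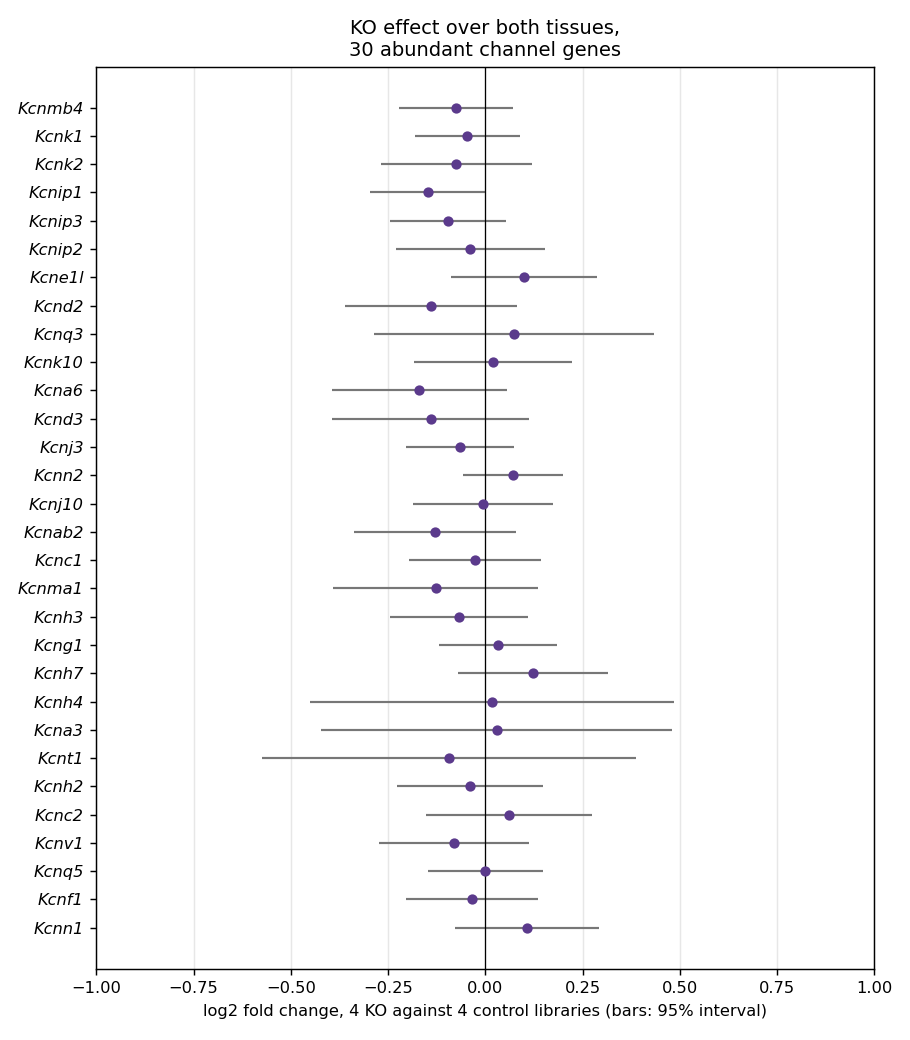
Log2 fold change of 4 KO against 4 control libraries over both tissues, with 95% intervals, for 30 abundant potassium channel genes in order of their mean RPKM. All points lie near 0, and none of the 85 tested genes passed the threshold.

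Genes whose products bind, anchor or modify potassium channels were read from a list of 33, of which 32 were tested. Over both genotypes 5 were higher in hippocampus and 17 lower, a share of 68.8% where 54.1% of all genes passed, 29% higher and 25% lower. Under KO none passed in any comparison, where at most 0.0621% of all genes did. The most abundant were Cntn2, an adhesion protein that gathers Shaker-type channels beside the node of Ranvier, the scaffold Dlg4 and Vapa, a membrane-contact protein that clusters Kcnb channels. Cntn2 lay at 73.8, 73.7, 80.2 and 78.7 RPKM in cortex and 139, 141, 109 and 153 RPKM in hippocampus (0.73 ± 0.11, edgeR adjusted p = 0.00033). Dlg2, a scaffold of Shaker-type and inward rectifier channels, was lower without overlap, at 42.2 to 47.1 RPKM against 19.9 to 23.3 RPKM (-1.11 ± 0.06, edgeR adjusted p = 1.0e-06). Dpp10, an accessory subunit of the Kcnd channels, was lower as well (-1.14 ± 0.11), as was Akap5, an anchor for Kcnq regulation (-1.39 ± 0.09).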

How the data were processed

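Each of 8 tables holds RPKM and read counts per Ensembl gene, as deposited by the authors; runs 1 and 2 of replicate 1 share a table, which was used as 1 library. The submitters' processing notes name Bowtie and mm9. How reads were counted is not stated there, nor is the strand setting, and 6 of the 93 genes (Kcnh3, Kcnh7, Kcnip4, Kcnj13, Kcnk4 and Kcnn1) share exon sequence with another gene of the tables. RPKM cells reading "ne" were treated as missing, and blank count cells as 0. IDs were named from the GENCODE M21 gene table (20759 of 22667 matched).

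The counts, raw as deposited, were tested with edgeR 4.0.16 (quasi-likelihood, TMM scaling, R 4.3.3) on 16111 genes passing filterByExpr (minimum count 10, minimum total 15). Contrasts within a tissue or genotype and the interaction came from 4 group means, those over both from a model with tissue and genotype as additive terms. P-values, two-sided, were adjusted by Benjamini-Hochberg over all genes tested, with a threshold of 0.05. The SE is the log2 fold change divided by the square root of F. The script was tested on simulated data. DESeq2 1.42.0, limma 3.58.1 on log2(RPKM + 1) and log2(RPKM + 0.1), other scalings and filters, a replicate block, a random block and leaving out each library were alternatives. Every group has replicates 1 and 2, which the labels tie to no shared litter or batch. Deviations of same-numbered libraries from their group means correlated at 0.101 to 0.37 over all 6 pairs of groups, so values with the replicate number as a block are given where they change a call. A floor of 3 counts equals 0.0214 to 0.0515 CPM. Since no label says that replicates are separate animals, p-values reflect only the scatter of these libraries, part of which may be technical.

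The members and gene lists were chosen with earlier results of these data known. Named genes are the 12 largest passing changes in each direction with a mean of at least 1 RPKM in a compared group, the 10 smallest p in a KO comparison, the 15 most abundant genes and the 3 most abundant of each class, and some genes of these sets are not reported here. Other genes were named to complete their class or pair, after their values were seen.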

Additional observations from a re-analysis of the deposited data

How the results depend on the processing

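Every count of channel genes past the threshold kept to within 1.5 times its value under the 17 alternatives, except that of KO in hippocampus, which ranged from 0 to 1 when each library was left out in turn. The 1 was Kcne2 without hippocampus control replicate 1 (-2.73), and without hippocampus control replicate 2 its log2 fold change reversed to 0.19. With each library left out in turn, the tissue counts ranged from 30 to 44 in controls, from 39 to 51 in KO and from 50 to 60 over both genotypes. Of the 40, 49 and 60 genes that passed, 23, 29 and 41 were tested and passed in all 17. For the 12 largest passing tissue differences in each direction (61 results over the 3 contrasts, not the other genes named), 1019 of 1037 values kept direction and side of the threshold, 18, from 7 results, lost the threshold and none reversed. Outside that set, Kcne2 kept its call in controls in 7 of 16 alternatives and Kcnh4 its calls in controls and in KO in 15 of 17 each. Of 647 values for the KO genes with the smallest p, 645 kept both. Scaling by library totals alone moved the median of all genes in the KO tissue contrast from 0.03 to 0.14, and 14 genes were then higher and 32 lower.

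With a replicate block, 48, 57 and 64 genes passed between tissues (controls, KO, both) and 0 in each KO comparison. No channel gene that passed without the block lost its call with it.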

Other observations

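Some channel genes differed between replicates 1 and 2 in the same sense in all 4 groups. Replicate 1 was the higher in all 4 groups for 20 of the 85 tested channel genes (23.5%) and replicate 2 for 11 (12.9%), where the shares over 16092 genes with RPKM values were 12.3% and 19.4%. The first set included Kcna2, at 2.52 against 1.66 RPKM in cortex control, 2.48 against 1.67 in cortex KO, 2.19 against 1.65 in hippocampus control and 2.20 against 1.65 in hippocampus KO. Kcnq3, Kcna3, Kcnj6 and Kcnh5 were in the same set. The second included Kcnh4, at 6.19 against 7.85, 5.42 against 9.26, 2.46 against 3.83 and 2.40 against 3.88 RPKM, and Kcnt1. Replicate 1 of each group combined 2 runs and was the deeper library. The numbers were not tested as a batch for these genes beyond the block above.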
